A study of Mus musculus with 9 samples.

Results

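The BCL2 family of apoptosis regulators was followed in mouse RAW 264.7 cells treated with pamidronate alone or with GGOH. The 10 members, Bcl2, Bcl2l1, Mcl1, Bax, Bak1, Bid, Bcl2l11, Bmf, Bbc3 and Pmaip1, were taken by gene symbol from a table of 49315 genes. All 10 were found once each and passed the filter on low counts, as did 15963 genes in all. Their counts ran from 74 to 7346 reads in a library. Bcl2, Bcl2l1 (the BCL-XL gene) and Mcl1 are the survival members, and the other 7 promote death.

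The family sets whether the outer mitochondrial membrane stays closed. BAX and BAK, the proteins of Bax and Bak1, form pores in that membrane, and cytochrome c that leaks out switches on the caspases. BCL2, BCL-XL and MCL1 hold the pore formers and the BH3-only proteins in check. The BH3-only proteins BID, BIM (Bcl2l11), BMF, PUMA (Bbc3) and NOXA (Pmaip1) report stress: they bind the survival proteins, and some of them also activate BAX and BAK directly. In macrophages and osteoclasts MCL1, BIM and BCL-XL are known regulators of lifespan. Pamidronate is a nitrogen-containing bisphosphonate, a class of drug against bone loss that blocks farnesyl pyrophosphate synthase and so starves the cell of the lipids used for protein prenylation. GGOH is geranylgeraniol, an alcohol that cells can turn into the geranylgeranyl donor downstream of the blocked step.

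RAW 264.7 is an established mouse line of macrophage type, which turns towards the osteoclast under RANKL, the cytokine that drives osteoclast formation. The 9 libraries of ribosomal RNA-depleted total RNA made up 3 groups of 3. The growth notes put 20 ng/ml RANKL on all cultures, 24 h after plating, and pamidronate after 48 h in all, for 24 h. The control libraries were labelled as untreated. The pamidronate libraries had 140 µM pamidronate, and the last group had 140 µM pamidronate with 5.25 µM GGOH, shortened here to pamidronate + GGOH, whose library names also carry a tag that the labels do not explain. No library with GGOH alone was analysed here. Biological replicates are named as such only in the titles of the control group, and no label says that the other libraries came from separate cultures, so p-values measure only the spread between these samples, which may be technical.

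Library totals lay between 14356069 and 18957968 reads. On the first principal component, with 68.9% of the variance, replicate 3 of pamidronate + GGOH stood nearest the control libraries. Mitochondrial transcripts took 10.6% ± 0.225 (SD, n = 3) of counts in the control, 4.21% ± 0.848 with pamidronate and 5.98% ± 0.482 with pamidronate + GGOH, and the nuclear RNA Malat1 took 1.52% ± 0.159, 4.83% ± 0.263 and 2.59% ± 0.217. The predicted gene Gm26917 took 7.70% ± 0.641, 12.4% ± 0.421 and 10.8% ± 0.848. For these 3 shares the groups did not overlap in any comparison (exact permutation test, two-sided p = 0.1, the smallest that 3 against 3 allows). All 8 macrophage markers were present, and their summed level ran from 15276 to 20044 CPM (counts in each 1e6 of a library, TMM-scaled) in the control, 4348 to 6144 with pamidronate and 6339 to 9276 with pamidronate + GGOH. Most of each sum was Lyz2, at means of 13708, 4303 and 5895 CPM. Csf1r fell by 3.82 on the log2 scale with pamidronate, Adgre1 by 2.49 and Cd68 by 0.69. With GGOH added to pamidronate 5 of the 8 markers were higher and 1, Cd68, lower (25.2% and 23.6% of all genes), and Lyz2 was not called. The 10 osteoclast markers summed to 217 to 247, 349 to 495 and 317 to 331 CPM. With pamidronate 4 of the 7 tested were higher and 1 lower: the sum was carried mainly by Atp6v0d2, from 58.2 to 272 CPM, while Nfatc1 was lower (log2 -0.66), Mmp9 at -0.62 and Acp5 at 0.48 were not called, and Ctsk was higher (2.81). The calcitonin receptor gene Calcr had 0 reads in the control and pamidronate libraries, and Oscar and Ocstamp had 15 reads or fewer in each group of libraries. Fibroblast and osteoblast markers summed to 22.5 to 33.5, 35.4 to 42.9 and 29.4 to 31.3 CPM, nearly all of it Runx2, with Pdgfra and Alpl at 0 in the control. The 7 lymphocyte markers summed to at most 2.49 CPM in any library. In bulk RNA fewer cells of a type and less RNA per cell cannot be told apart, and the part of these shifts in the results on the family was not tested.

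The 3 promoter stretches printed here show the DNA in front of BH3-only genes that changed with pamidronate. Each is the 250 bases before a RefSeq transcript start in GRCm38.p6, read on the gene's strand. The motif letters were chosen with the expression values known. Bcl2l11 and Bbc3, which both rose with pamidronate, are shown because each holds the FOXO motif GTAAACA on one strand or the other, in capitals below. Bmf, which fell most, is shown because its furthest upstream window held none of the motifs searched. The other windows of Bcl2l11 and Bbc3 did not hold GTAAACA. The stretches were thus picked by motif and direction, and whether the motif goes with the direction of change was not tested.
Bcl2l11, chr2:128125788-128126037, plus strand: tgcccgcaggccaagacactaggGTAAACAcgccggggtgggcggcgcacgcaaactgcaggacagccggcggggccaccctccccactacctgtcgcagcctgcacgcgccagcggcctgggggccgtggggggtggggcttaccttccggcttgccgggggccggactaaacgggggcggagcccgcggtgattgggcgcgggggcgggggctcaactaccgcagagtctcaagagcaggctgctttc
Bbc3, chr7:16310011-16310260, plus strand: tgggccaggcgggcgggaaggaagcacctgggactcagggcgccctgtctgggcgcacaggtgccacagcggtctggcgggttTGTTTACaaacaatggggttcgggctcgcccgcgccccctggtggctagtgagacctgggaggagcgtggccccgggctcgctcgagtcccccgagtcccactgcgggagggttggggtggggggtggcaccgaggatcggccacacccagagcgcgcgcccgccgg
Bmf, chr2:118549687-118549936, minus strand: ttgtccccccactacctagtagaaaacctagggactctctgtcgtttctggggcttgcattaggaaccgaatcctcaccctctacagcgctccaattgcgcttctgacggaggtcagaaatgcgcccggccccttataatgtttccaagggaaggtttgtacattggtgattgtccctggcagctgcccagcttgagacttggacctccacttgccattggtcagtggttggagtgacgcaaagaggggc
The Bcl2l11 match starts 227 bases before the transcript start, and the Bbc3 match, on the other strand and so printed as TGTTTAC, 167 bases before it. The Bbc3 window belongs to an internal start and lies within the gene as annotated. GTAAACA was found on either strand in 2 of the 16 windows of the 9 members with a RefSeq window and in 3.17% of all 32851 windows. The E-box CACGTG, found in 6.02% of all windows, was likewise in 2 of the 16 member windows. It lay in another Bbc3 window (chr7:16310181-16310430) 64 bases before its start and in the Bax window 9 bases before the start. A p53 half-site, found in 7.13% of all windows, was in 2 of the 16 as well. It lay 213 bases before another Bmf start (chr2:118544588-118544837) and 201 bases before the Bax start. No match overlapped another. A match is a run of letters, not a shown binding site.

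The genes lie on 7 chromosomes in GRCm38. Bcl2 spans chr1:106538178-106714274 on the minus strand, Bcl2l1 chr2:152780668-152831728 on the minus strand and Mcl1 chr3:95658788-95663176 on the plus strand. Bax lies at chr7:45461697-45466898 and Bak1 at chr17:27019810-27029009, both on the minus strand. Bid lies at chr6:120891930-120916853 and Bmf at chr2:118528757-118549687, both on the minus strand, and Bcl2l11 at chr2:128126038-128162547 and Bbc3 at chr7:16308393-16318205 on the plus strand. Pmaip1 is on chromosome 18. No source used here says whether the counting used strand, and 4 members share exon sequence with a neighbour. Bid shares 628 of 3550 exon bases with Bcl2l13 on the other strand, a gene with 694 to 890 reads a library, and Bak1 shares 437 of 2407 with Ggnbp1 on the other strand, which had 86 to 177. The partners of Bcl2 and Bax had at most 8 and 2 reads.

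Levels of different genes were compared on the authors' TPM, which corrects for the total length of a gene's annotated exons. The length of the transcripts actually made was not used, and the order of the members rests on that choice. Mcl1 was the most abundant member in all 3 groups, at 233 ± 6.53 TPM (SD, n = 3) in the control, 317 ± 23.9 with pamidronate and 228 ± 14.03 with pamidronate + GGOH. Bax and Bak1 came next in every group, at 75.3 to 91.6 TPM, and the libraries of the 2 genes overlapped each time. In the control Pmaip1 (43.7), Bid (40.3), Bcl2l1 (35.1), Bmf (30.9) and Bbc3 (29.6) followed as a run in which each gene's libraries overlapped those of the next, then Bcl2l11 at 21.4 and Bcl2 at 6.22 TPM. With pamidronate the order behind Bax and Bak1 was Bbc3 (78.9), Pmaip1 (56.1), Bcl2l1 (46.1), Bcl2l11 (34.3) and Bid (12.7), with no overlap between neighbours, and Bcl2 (3.09) and Bmf (2.71) were last and overlapped. With pamidronate + GGOH it was Bcl2l1 (51.0), then Bbc3 (37.0), Pmaip1 (31.8) and Bid (31.7), which overlapped in turn, then Bcl2l11 (24.3), Bmf (10.3) and Bcl2 (6.03). Bmf and Bbc3, whose libraries overlapped in the control, thus moved apart under pamidronate. Bbc3 took the place behind Bax and Bak1, and Bmf went to the foot of the order beside Bcl2.

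Changes between groups were tested with edgeR's quasi-likelihood test on read counts, with p-values adjusted by Benjamini-Hochberg over all 15963 genes and a gene called at an adjusted p under 0.05. Pamidronate changed 7 of the 10 members against the control, where 69.2% of all genes tested were called. Bbc3, Bcl2l11, Mcl1 and Bcl2l1 were higher, where 36.2% of all genes were, and Bmf, Bid and Bcl2 lower, where 32.9% were. Adding GGOH to pamidronate also changed 7 of 10, where 48.8% of all genes were called: Bmf, Bid and Bcl2 were higher, where 25.2% of all genes were, and Bbc3, Pmaip1, Bcl2l11 and Mcl1 lower, where 23.6% were. Against the control, pamidronate + GGOH left 5 of 10 called, where 52.4% of all genes were called. All 5, Bmf, Pmaip1, Bid, Bcl2 and Mcl1, were lower, where 26.0% of all genes were called lower and 26.3% higher. With a change of at least 2-fold also required, 4, 4 and 1 members were called in the 3 comparisons, where 37.9%, 16.2% and 19.3% of all genes were. The 3 comparisons share libraries pairwise, so opposite signs in the first and second are not separate evidence.

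The survival and death members did not divide by direction. Against the control with pamidronate, 2 survival members were higher and 1 lower, and of the 7 death members 2 were higher, 2 lower and 3 not called. With GGOH added to pamidronate 1 survival member was higher and 1 lower, and 2 death members were higher and 3 lower. Between pamidronate + GGOH and control 2 survival members and 3 death members were lower and none higher. The median log2 fold change of the 10 members was 0.17, -0.18 and -0.29 in the 3 comparisons, beside 0.08, 0.00 and 0.02 over all genes tested. CPM values of the groups did not overlap for 7, 8 and 5 members, where 73.4%, 59.6% and 58.2% of all genes did not.

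**Figure D1:**
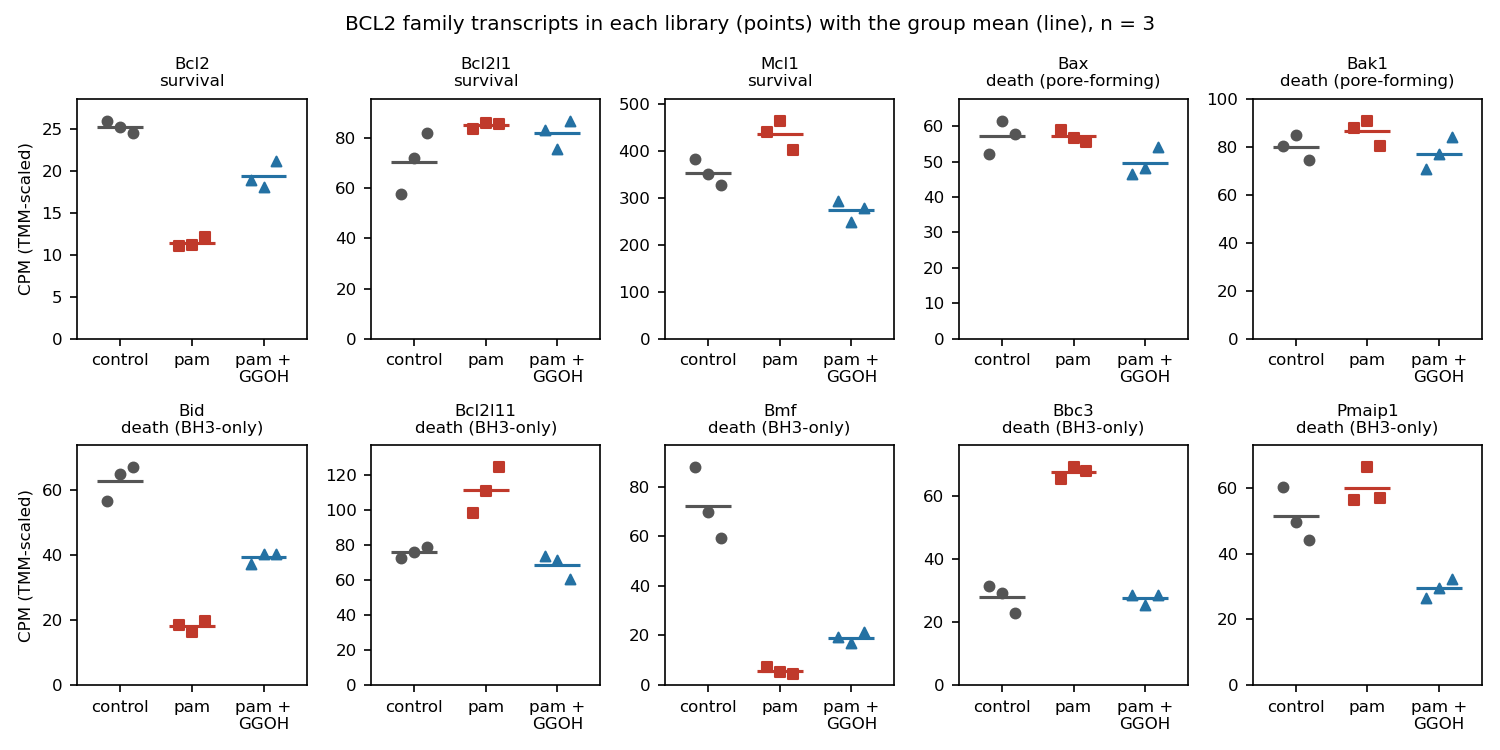
Each panel plots the CPM of a member (vertical axis, from 0, TMM-scaled) in the 9 libraries, with points for libraries and a line for the mean of the 3 in each group; pam stands for pamidronate. Bmf, Bid and Bcl2 are lowest with pamidronate, and Bbc3, Bcl2l11 and Mcl1 are highest there, with no overlap of libraries. For Bax and Bak1 the pamidronate and control groups overlap.

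Bcl2, the founding survival member, was the least abundant member in the control per length. Its level was 25.9, 25.1 and 24.5 CPM in the control libraries, 11.0, 11.1 and 12.1 with pamidronate and 18.8, 18.1 and 21.2 with pamidronate + GGOH. The 3 groups did not overlap, with pamidronate + GGOH in the middle. Bcl2 was lower with pamidronate, by -1.14 ± 0.11 (SE) on the log2 scale with an adjusted p of 3.70e-07, and GGOH on top of pamidronate raised it by 0.76 ± 0.11 (adjusted p = 5.43e-05). Against the control, pamidronate + GGOH was lower by -0.38 ± 0.10 on the log2 scale (adjusted p = 0.00763).

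Mcl1, which encodes a survival protein of rapid turnover, had 382, 350 and 327 CPM in the control, 441, 465 and 402 with pamidronate and 292, 249 and 278 with pamidronate + GGOH. All 3 pamidronate libraries lay above the control and all 3 pamidronate + GGOH libraries below it. The log2 fold change with pamidronate was 0.30 ± 0.10 (adjusted p = 0.0117), lost when control replicate 2, control replicate 3 or pamidronate replicate 2 was left out (adjusted p = 0.0989, 0.121 and 0.0649) and when low-count genes were kept in (0.22, adjusted p = 0.0627). With GGOH added to pamidronate Mcl1 fell by 0.67 on the log2 scale (SE 0.10, adjusted p = 5.87e-05). Pamidronate + GGOH against control gave -0.37 ± 0.10 (adjusted p = 0.00538).

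That last fall, and the one of Bcl2, depended on how libraries were scaled. With upper-quartile in place of TMM factors, which raised the median of all genes in this comparison from 0.02 to 0.23, Bcl2 was at -0.18 (adjusted p = 0.162) and Mcl1 at -0.17 (adjusted p = 0.149). On the authors' TPM, where the median gene stood 0.35 higher with pamidronate + GGOH than in the control on the log2 scale, the log2 ratios of group means were -0.05 for Bcl2 and -0.04 for Mcl1, and the libraries overlapped. In the same comparison Bid, Bmf and Pmaip1 were lower on every scale, at -0.35, -1.58 and -0.46 on TPM.

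Bcl2l1, the gene of BCL-XL, spread widely in the control at 57.7, 72.3 and 82.0 CPM. It was at 83.8, 86.0 and 85.9 with pamidronate and 83.5, 75.9 and 87.1 with pamidronate + GGOH. The third control library came within 2 CPM of the lowest pamidronate library. The log2 fold change with pamidronate was 0.27 ± 0.11 (adjusted p = 0.0396). The call was lost in 12 of 18 alternatives, and the 18 include the ratio of mean TPM, which has no test. The adjusted p was 0.212 when the first control library, the lowest, was left out. GGOH on top of pamidronate gave -0.05 ± 0.11 (adjusted p = 0.718), with a 95% interval of -0.29 to 0.18. Pamidronate + GGOH against control gave 0.22 ± 0.11 (adjusted p = 0.108), called at an adjusted p of 0.0244 without the third control library and 0.00418 with upper-quartile factors.

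Neither pore former was called in any of the 3 comparisons. Bax had 52.0, 61.5 and 57.9 CPM in the control, 59.0, 56.5 and 55.6 with pamidronate and 46.4, 48.3 and 54.0 with pamidronate + GGOH. The control and pamidronate libraries overlapped fully, with a log2 fold change of -0.00 (95% interval -0.20 to 0.19, adjusted p = 0.984), an interval that leaves out a 2-fold change. The value was -0.20 both against pamidronate (adjusted p = 0.0816, interval -0.40 to -0.01) and against control (adjusted p = 0.0738) for pamidronate + GGOH. The second of these was called without the first control library (adjusted p = 0.0272) or without the third pamidronate + GGOH library (adjusted p = 0.0172).

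Bak1, the gene of the other pore former, had 80.6, 84.9 and 74.5 CPM in the control, 88.0, 91.0 and 80.5 with pamidronate and 70.7, 77.1 and 84.1 with pamidronate + GGOH. Every pair of groups overlapped in CPM. On TPM both treated groups lay above the control, at log2 ratios of 0.25 with pamidronate and 0.28 with pamidronate + GGOH. The median gene stood 0.21 and 0.35 higher on that scale. No comparison passed the threshold: the log2 fold changes were 0.11 ± 0.09 with pamidronate (adjusted p = 0.279), -0.16 ± 0.09 with GGOH added (adjusted p = 0.151) and -0.05 ± 0.09 against control (adjusted p = 0.659). With upper-quartile factors the first became 0.31 (adjusted p = 0.0049) and the third changed sign to 0.15.

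**Figure D2:**
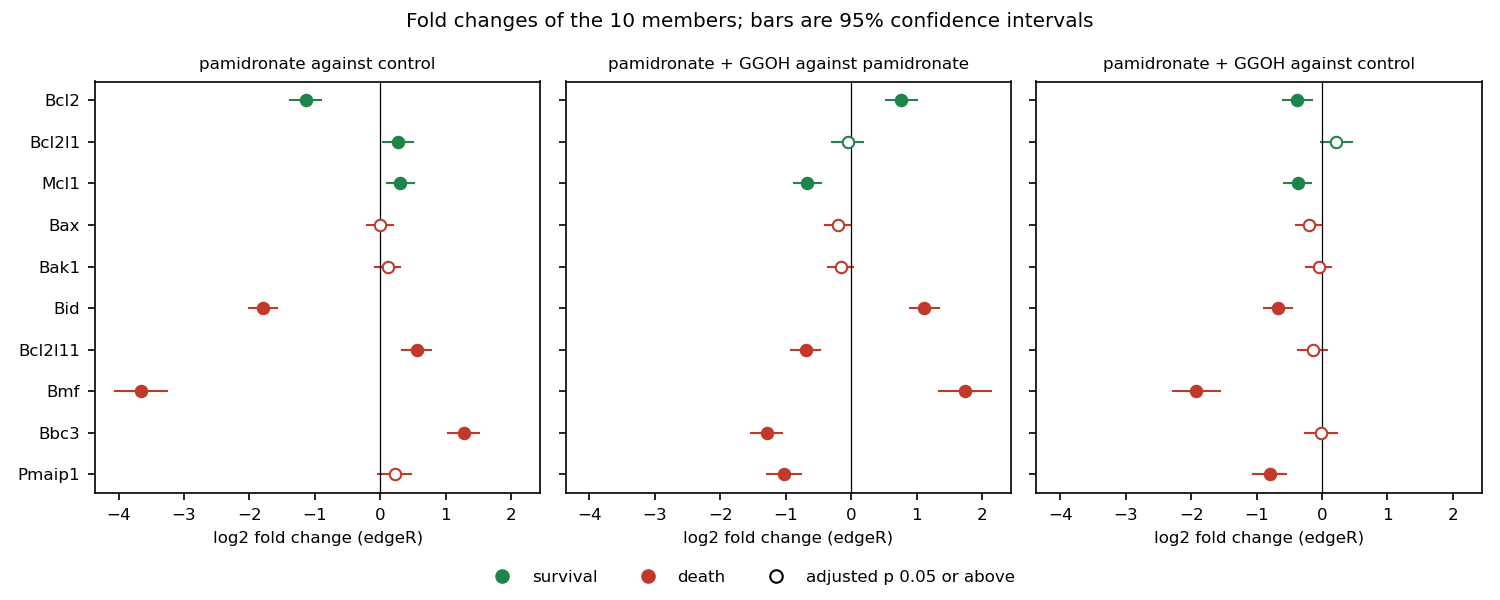
Log2 fold changes (horizontal axis, edgeR) of the 10 members in the 3 comparisons, with 95% confidence intervals as bars; survival members are green, death members red, and open points did not pass an adjusted p of 0.05. Bmf lies at -3.65 with pamidronate and at 1.74 when GGOH is added, and the points of Bax and Bak1 are open in all 3 panels.

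Bmf, whose protein is held on the actin cytoskeleton through a dynein light chain until it is set free, changed most of the 10. It had 87.8, 69.6 and 59.2 CPM in the control, 7.21, 5.38 and 4.58 with pamidronate and 19.2, 16.9 and 21.2 with pamidronate + GGOH. The 3 groups were far apart, and each pamidronate library still held 74 to 118 Bmf reads. Pamidronate lowered Bmf 12.6-fold, a log2 fold change of -3.65 ± 0.18 (adjusted p = 6.03e-09). GGOH on top of pamidronate raised it 3.33-fold (log2 1.74 ± 0.18, adjusted p = 8.52e-06), and it was still 3.78-fold lower than in the control (log2 -1.92 ± 0.16, adjusted p = 2.99e-06).

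Bid, which caspase-8 cleaves so that death receptors can reach the mitochondria, had 56.7, 64.9 and 67.1 CPM in the control, 18.5, 16.4 and 19.6 with pamidronate and 37.4, 40.4 and 40.5 with pamidronate + GGOH. As for Bmf, the groups did not overlap and the pamidronate + GGOH libraries lay between. The log2 fold changes were -1.79 ± 0.10 with pamidronate (adjusted p = 4.86e-09), 1.12 ± 0.10 with GGOH added (adjusted p = 1.30e-06) and -0.67 ± 0.10 between pamidronate + GGOH and control (adjusted p = 7.36e-05). Bcl2l13, which shares exon sequence with Bid, was not called in any comparison, at 0.02 ± 0.09, -0.10 ± 0.09 and -0.08 ± 0.09.

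Bbc3, the gene of PUMA, a strong inhibitor of all survival members and a known target of p53 and FOXO3, rose most. It had 31.5, 29.2 and 22.9 CPM in the control, 65.4, 69.1 and 68.1 with pamidronate and 28.7, 25.4 and 28.5 with pamidronate + GGOH. The pamidronate libraries stood clear of the rest, while the control and pamidronate + GGOH libraries overlapped. The rise with pamidronate was 2.42-fold (log2 1.27 ± 0.11, adjusted p = 1.66e-07), and Bbc3 was 2.45-fold lower with GGOH added (log2 -1.29 ± 0.11, adjusted p = 8.07e-07). Between pamidronate + GGOH and control the log2 fold change was -0.02 ± 0.11 (adjusted p = 0.906, 95% interval -0.26 to 0.22). On TPM that last ratio was 0.32 on the log2 scale and the libraries did not overlap. The median gene stood 0.35 higher on that scale.

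Bcl2l11, the gene of BIM, had 72.4, 76.0 and 78.6 CPM in the control. It had 98.0, 111 and 124 CPM with pamidronate and 73.8, 71.4 and 60.3 with pamidronate + GGOH. Its pattern over the groups was that of Bbc3 with a smaller size. The log2 fold changes were 0.55 ± 0.10 (adjusted p = 0.000214), -0.70 ± 0.10 (adjusted p = 6.66e-05) and -0.14 ± 0.10 (adjusted p = 0.247, 95% interval -0.36 to 0.07).

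Pmaip1, the gene of NOXA, which binds MCL1 and marks it for breakdown, had 60.3, 49.7 and 44.1 CPM in the control, 56.4, 66.4 and 56.9 with pamidronate and 26.6, 29.6 and 32.2 with pamidronate + GGOH. Here the pamidronate + GGOH libraries stood apart, below all the others, while the first control library lay among the pamidronate libraries. The log2 fold change with pamidronate was 0.22 ± 0.12 (adjusted p = 0.109), and it was called without the first control library (0.35, adjusted p = 0.0146). Pmaip1 was lower with GGOH added (-1.02 ± 0.12, adjusted p = 1.08e-05) and lower in pamidronate + GGOH than in the control (-0.80 ± 0.12, adjusted p = 9.93e-05).

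The summed level of the survival members, on TPM, was 270.7, 279.2 and 274.4 in the control libraries, 379.3, 380.0 and 338.3 with pamidronate and 294.1, 265.4 and 294.5 with pamidronate + GGOH. The pamidronate libraries were highest, and the other groups overlapped. Mcl1 alone made up 85.0%, 86.5% and 79.9% of the sum on average. The death members summed to 324 ± 16.2, 364 ± 8.40 and 316 ± 21.8 TPM. The ratio of survival to death transcripts was 0.850 ± 0.0291 in the control, 1.00 ± 0.0435 with pamidronate and 0.903 ± 0.0862 with pamidronate + GGOH, whose libraries ranged from 0.836 to 1.00 and overlapped both other groups. Without Mcl1 the ratio was 0.128, 0.135 and 0.181, highest with pamidronate + GGOH. On TPM the median gene stood 0.21 higher with pamidronate than in the control on the log2 scale and 0.35 higher with pamidronate + GGOH, a shift that the sums carry and that cancels in the ratio. The sums have no test, and transcript sums do not measure protein.

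The make-up of the BH3-only transcripts moved more than their sum. The sum was 166 ± 5.92 TPM in the control, 185 ± 3.42 with pamidronate and 135 ± 4.35 with pamidronate + GGOH. Bbc3 made up 17.8% of it in the control, 42.7% with pamidronate and 27.4% with pamidronate + GGOH. Bmf went from 18.6% to 1.47% and 7.66%, and Bid from 24.3% to 6.89% and 23.4%. Pmaip1 held 26.3%, 30.4% and 23.5%, and Bcl2l11 12.9%, 18.5% and 18.04%.

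**Figure D3:**
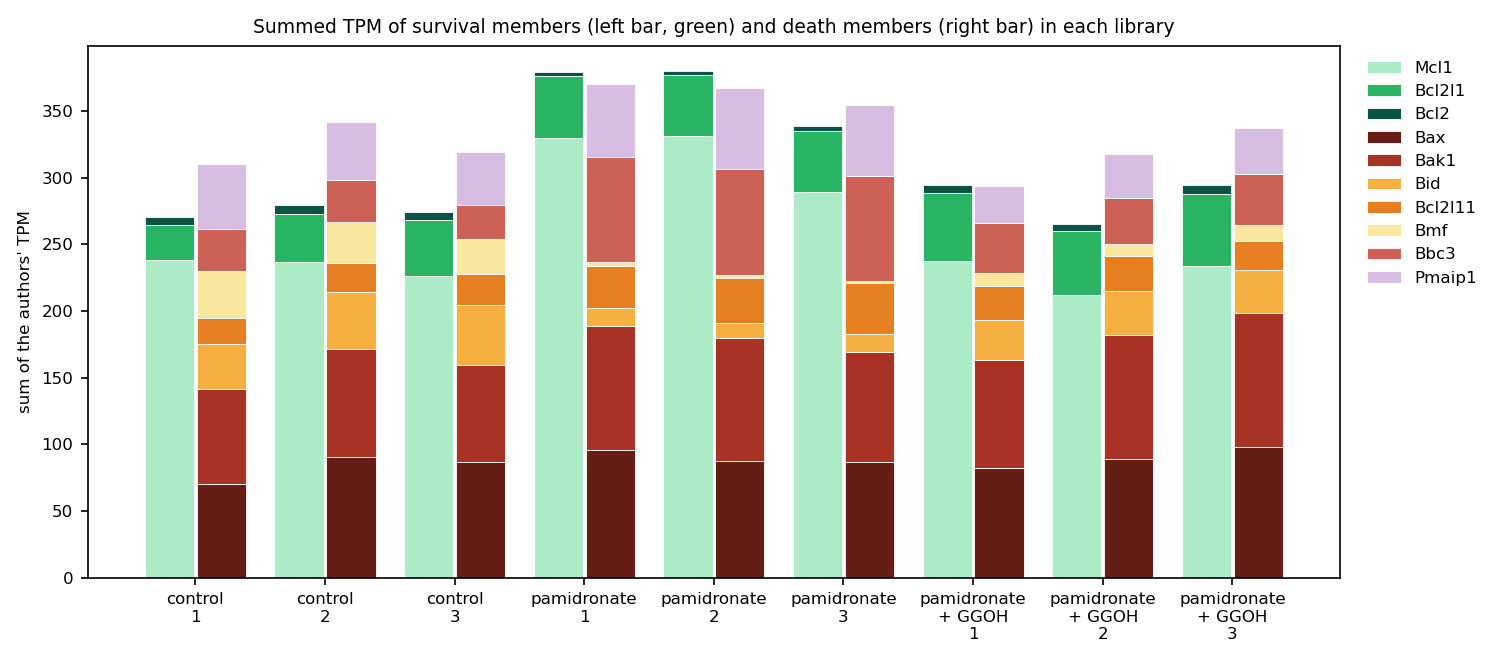
Stacked bars give the summed TPM (vertical axis, the authors' values) of the 3 survival members (left bar of each library, green) and of the 7 death members (right bar) in the 9 libraries. Mcl1 fills most of every survival bar, and in the pamidronate libraries the Bbc3 segment is wide and the Bmf segment nearly gone.

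Of 5 further survival genes, Bcl2l2, Bcl2a1b and Bcl2a1d were tested, and Bcl2a1a and Bcl2l10 had 12 and 10 reads over all 9 libraries. Bcl2a1b fell with pamidronate (log2 -1.42 ± 0.21, adjusted p = 2.89e-05) from 6.38 ± 1.31 to 2.38 ± 0.238 CPM and was at 7.60 ± 1.14 with GGOH added (1.67 ± 0.21, adjusted p = 1.66e-05). Bcl2a1d moved likewise (-1.75 ± 0.31 and 1.23 ± 0.31). These A1 genes are near-identical copies, so how reads were split between them is uncertain. Bcl2l2, the gene of BCL-W, was not called in any comparison.

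Among the further death genes Bad was not called, Bok and Bik had 41 and 30 reads in all, and Hrk went from 1 read in the control libraries together to 35 with pamidronate and 42 with pamidronate + GGOH. The ratio for pamidronate was 37.1 with a 95% counting interval of 6.23 to 1505, exact and for counting error only. Of 6 less defined relatives, 2 rose and 1 fell with pamidronate, where 69.2% of all genes were called. Bcl2l14 was the gene that fell (log2 -1.76 ± 0.57, adjusted p = 0.0128), a call lost without pamidronate replicate 2 (adjusted p = 0.0569). Bcl2l15 was higher than in the control in both treated groups (log2 3.38 ± 0.36 and 3.37 ± 0.36) on 17, 170 and 184 reads a group. Bnip3l, the gene of the mitophagy receptor NIX, rose with pamidronate (0.53 ± 0.10) and was lower with GGOH added (-0.50 ± 0.10). Bnip3, its relative, was higher with GGOH added (0.98 ± 0.24, adjusted p = 0.00928).

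Binding partners and regulators of protein turnover were mostly lower with pamidronate: of 17, 14 fell and 3 rose, where 32.9% of all genes fell and 36.2% rose, and the median log2 fold change was -0.47, beside 0.08 over all genes. GGOH added to pamidronate raised 10 and lowered 2 of them (25.2% and 23.6% of all genes), with a median of 0.30 beside 0.00. Pamidronate + GGOH against control gave 1 higher and 13 lower (26.3% and 26.0% of all genes), with a median of -0.37 beside 0.02. The list holds 14-3-3 genes, which bind phosphorylated BAD, and of these Ywhab fell most with pamidronate (-2.51 ± 0.31) and Ywhae fell by 1.02 on the log2 scale. Dynll1, a dynein light chain that docks BIM, fell (-1.29 ± 0.10) and was raised by GGOH (0.65 ± 0.10). Dynll2, the light chain that docks BMF, named here after its values were seen, went the other way at 0.22 ± 0.09 and -0.60 ± 0.09. March5, a mitochondrial ubiquitin ligase linked to MCL1 turnover, was at 0.40 ± 0.09 and -0.73 ± 0.09. Usp13, a deubiquitinase of MCL1, had 0 reads in the control and 12 with pamidronate. With the control set at a floor of 3 reads over the group the ratio was 4.23, a value that leaves out counting error. Other turnover genes on the list, named after their values were seen, fell with pamidronate. They were Fbxw7 (-0.83 ± 0.10), Huwe1 (-0.40 ± 0.10), Btrc (-0.34 ± 0.13) and Usp9x (-0.22 ± 0.08).

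Of 11 genes that act after the mitochondrial pore opens, 8 fell with pamidronate and 1 rose, where 32.9% and 36.2% of all genes did, with a median of -0.67 beside 0.08. Casp6, a caspase gene (-1.14 ± 0.14), was among those that fell, as was Aifm1, the gene of apoptosis-inducing factor (-0.97 ± 0.13). Apaf1, which builds the apoptosome, was the 1 that rose (0.39 ± 0.08), and Cycs, the cytochrome c gene, was at -0.02 ± 0.09. With GGOH added 4 were higher, where 25.2% of all genes were, among them Xiap, an inhibitor of caspases (0.39 ± 0.08), and 1, Apaf1, was lower (-0.28 ± 0.08), where 23.6% of all genes were. Against the control 5 were lower with pamidronate + GGOH, where 26.0% of all genes were, and none higher.

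Of 15 tested genes of transcription factors known to act on family members, 5 rose and 7 fell with pamidronate, where 69.2% of all genes were called, 36.2% higher and 32.9% lower. Myc, from 35 reads in the control libraries to 3744, rose by a log2 fold change of 6.81 ± 0.48. The stress factors Ddit3, also called CHOP, and Atf4 rose by 2.86 ± 0.20 and 2.41 ± 0.14. Mitf, a factor of the osteoclast and pigment cell lineages that acts on Bcl2, fell by 1.98 on the log2 scale, and E2f1 was at -1.77 ± 0.25. With GGOH added Myc (-2.61 ± 0.33), Atf4 (-1.29 ± 0.14) and Ddit3 (-1.03 ± 0.19) were lower, in a count of 7 lower and 2 higher (23.6% and 25.2% of all genes), and all 3 were still above the control in pamidronate + GGOH (4.20 ± 0.51, 1.12 ± 0.14 and 1.82 ± 0.20). Trp53 and Foxo3, named after their values were seen because they act on Bbc3, moved in opposite directions with pamidronate. Trp53 was at -1.07 ± 0.17, and Foxo3 at 0.56 ± 0.09, with 0.27 ± 0.17 for Trp53 (adjusted p = 0.218) and -0.77 ± 0.09 for Foxo3 when GGOH was added. Foxo1, whose protein reads the same motif, was at -0.06 ± 0.10 with pamidronate (adjusted p = 0.593) and -0.26 ± 0.10 with GGOH added (adjusted p = 0.0351). These are transcript levels, and whether any of these factors was bound at the promoters printed above was not measured.

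**Figure D4:**
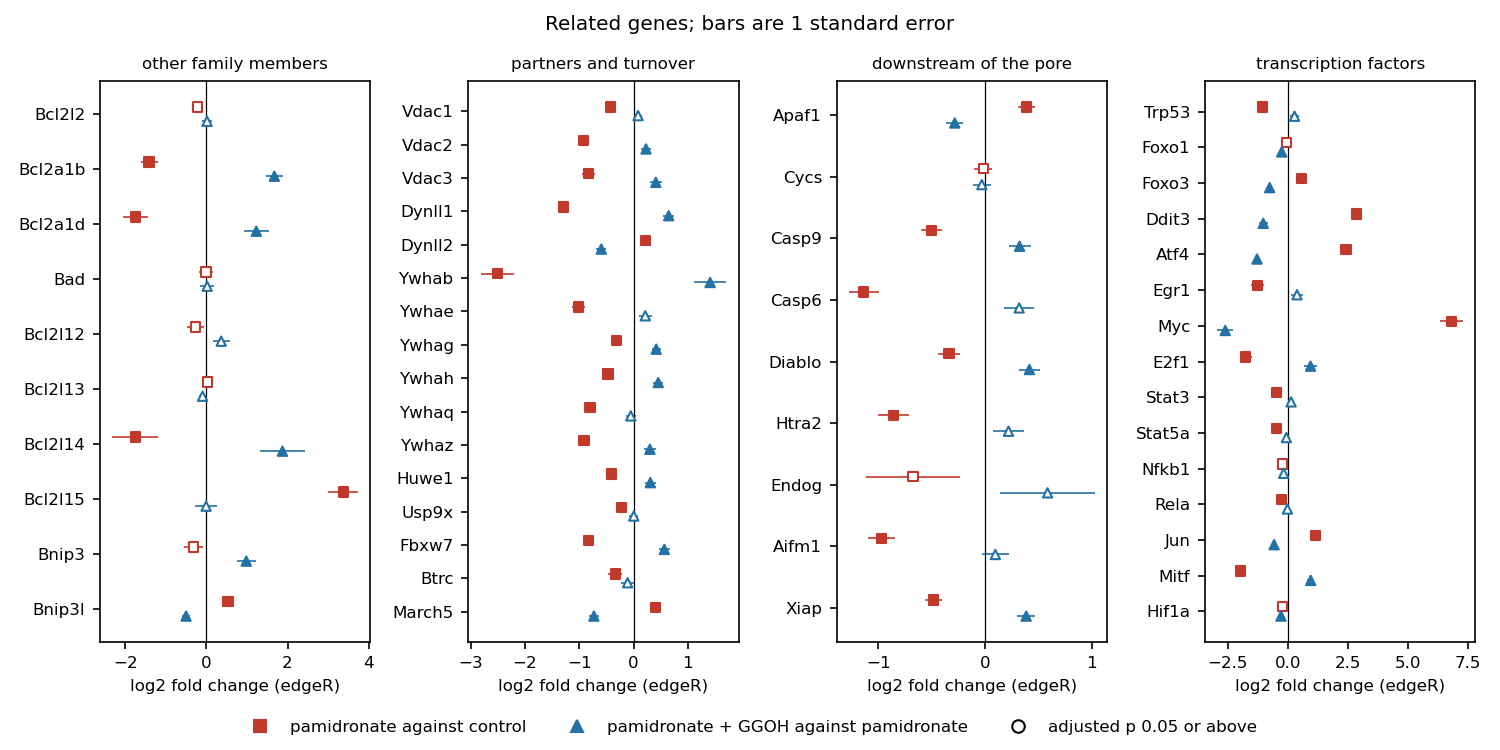
Log2 fold changes (horizontal axis, edgeR, bars 1 standard error) of other family members, partners and turnover genes, genes downstream of the pore and transcription factors; squares are pamidronate against control, triangles pamidronate + GGOH against pamidronate, and open marks did not pass an adjusted p of 0.05. Most filled squares of the partner and downstream panels lie below 0, and Myc lies furthest right at 6.81; Hrk and Usp13, with 3 reads or fewer in the control, are not drawn, nor is every gene downstream of the pore.

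The gene most like each member over the 9 libraries was found by Pearson's r of log2 CPM, with no p, since all points share the same 3 groups. It was Ndrg2 for Bmf (r = 0.997), Mob3b for Bid (0.998), Socs4 for Bbc3 (0.997), N4bp2l2 for Bcl2l11 (0.985), Dusp11 for Pmaip1 (0.990) and Tcf20 for Mcl1 (0.986). For Bcl2 it was AB124611 (0.995), with Ralb next at the same rounded value. Members with small changes matched less closely: Bax with Rpia (0.960), Bcl2l1 with Vav2 (0.939) and Bak1 with Sesn2 (0.934).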

How the data were processed

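Ribosomal RNA-depleted RNA from 300 ng of total RNA was sequenced for 9 libraries. Per the submitters' processing notes, Trimmomatic 0.36, DESeq and GRCm38 were used; no source used here gives the aligner, the counter or its strand setting. The authors deposited raw read counts per gene, with gene length (other column) and TPM; the deposited TPM equal count over length, scaled to 1 total for all libraries. Here the counts of 49315 genes (174 without a symbol) were filtered with filterByExpr to 15963, scaled by TMM and tested with edgeR 4.0.16 (R 4.3.3; robust quasi-likelihood, all 9 libraries, 6 residual degrees of freedom), with Benjamini-Hochberg adjustment. Fold changes are the first group named against the second. Alternatives used limma 3.58.1 (voom), DESeq2 1.42.0, other scalings, filters and thresholds, a replicate block and leaving out each library; the ratio of mean TPM was added after seeing the data. The script was tested on simulated data in which few genes were changed. Scaling with as many genes changed as here was not tested that way. No 2 libraries of a group agreed within sampling noise (chi-square per degree of freedom 3.72 or more).

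The members and gene lists were chosen with earlier results of these data known. Named were all 10 members, up to 4 called genes with the largest change per list and comparison, 3 defining markers per list and the most similar gene by r (mean CPM of at least 5). RefSeq promoter windows matched 9 members. Some genes that this rule names are not reported here. Exact intervals are at the 95% level and cover counting error only.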

Additional observations from a re-analysis of the deposited data

How the results depend on the processing

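Requiring a change of at least 2-fold left 4, 4 and 1 members called in the 3 comparisons (pamidronate against control, pamidronate + GGOH against pamidronate, pamidronate + GGOH against control) and 6047, 2590 and 3079 of all genes. The ratio of survival to death transcripts was 1.05, 1.31 and 1.21 (control, pamidronate, pamidronate + GGOH) from sums of CPM, and 0.128, 0.135 and 0.181 without Mcl1. Upper-quartile factors raised the median of all genes from 0.08 to 0.28 and from 0.02 to 0.23 in the comparisons with the control, and turned the split of calls for pamidronate + GGOH from 4202 higher and 4157 lower to 5834 and 2600. Only uncalled members changed sign. Bax with pamidronate was at 0.19 with upper-quartile factors, 0.028 with a stricter filter, 0.0010 with the replicate block, 0.00069 with limma-voom, 0.13 on TPM and -0.071 to 0.013 leaving out 1 library. For pamidronate + GGOH against control, Bak1 was at 0.15 with upper-quartile factors, 0.28 on TPM and -0.13 to 0.0016 leaving out 1 library; Bcl2l11 at 0.060 and 0.18 with those 2 scalings; Bax at 0.12 on TPM; and Bbc3 at 0.18, 0.32, 0.017 with the stricter filter, 0.018 with only the 2 groups and -0.16 to 0.069 leaving out 1 library. Against pamidronate, Bcl2l1 was at 0.15 and Bak1 at 0.037 on TPM, and Bcl2l1 at -0.070 to 0.049 leaving out 1 library. The cause was not tested.

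With pamidronate, 5 to 9 members were called over the settings with no fold limit: Mcl1 and Bcl2l1 were the calls lost, and Bak1 and Pmaip1 those gained with upper-quartile factors. The same factors left 4 members called for pamidronate + GGOH against control, with Bcl2l1 higher and Bmf, Bid and Pmaip1 lower. For pamidronate against control Bmf, Bid, Bbc3, Bcl2l11 and Bcl2 kept direction and call in every alternative with an adjusted p under 0.05 as the limit, and the 7 calls of pamidronate + GGOH against pamidronate did so too. Same-numbered samples were not seen to deviate together (correlations of -0.22 to 0.20, against -0.22 to 0.18 for different numbers). With 3 libraries per group this shows no pairing by number and cannot exclude one. With the replicate block 7, 7 and 5 members and 10980, 7622 and 8275 genes were called. Bmf in the pamidronate libraries rests on 74 to 118 reads each.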
